A study of Mus musculus with 312 samples.

Results

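The 10 genes described here, Lgr5, Lgr4, Lgr6, Procr, Cd55, Tspan8, Cd24a, Cd44, Bcl11b and Thy1, have been put forward as markers of mammary stem or progenitor cells, mostly for sorting them by a surface protein. They were taken as a list by gene symbol, with no threshold on their values, from the 25136 genes that were used. The question put to the data was whether these markers name the same basal cells. RNA was measured in single cells of FVB/NJ mice loaded into the Fluidigm C1, which holds each cell in a chamber of its own, and all 312 cells carry the label basal. They comprise 112 adult cells whose titles hold the mark (2), called marked below, 125 adult cells without the mark, called unmarked, and 75 cells from pregnant mice. The labels do not explain the mark, name no animals and give neither the age of the adults nor the day of pregnancy. According to the study's methods, adult basal cells were sorted as CD29 high and CD24 positive after removal of CD31, CD45 and Ter119 positive cells. For pregnancy on this instrument the study describes only total epithelium, with more retained cells than the 75 cells here. Whether the 75 cells labelled basal belong to that run is not stated, so their label could not be checked against a gate.

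In the mammary duct, basal cells lie outside the luminal cells and contract to move milk. Lgr4, Lgr5 and Lgr6 encode receptors for R-spondins, secreted proteins that strengthen Wnt signalling by drawing the ubiquitin ligases Znrf3 and Rnf43 away from Wnt receptors. Procr encodes the endothelial protein C receptor, Cd55 a regulator that protects cells from complement, Tspan8 a tetraspanin, Cd44 a receptor for hyaluronan, and Cd24a and Thy1 small proteins tethered to the membrane by a lipid anchor. Bcl11b differs from the other members because it encodes a zinc finger transcription factor of the nucleus and not a surface protein. Basal cells with Lgr5 or Procr have each been described as stem cells of the gland, and marker combinations that include CD24 and CD44 are in common use.

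A cell was retained with at least 50000 read pairs and 1000 genes outside mitochondrial and ribosomal protein genes. This left 81 of 112 marked, 58 of 125 unmarked and 71 of 75 pregnancy cells. Median assigned reads were 174910, 101320 and 230645 per cell in these sets, and the median number of genes in a cell thinned to 50000 reads was 2320, 2214 and 3205. Of 11 core basal genes, at least 6 reached 100 CPM (reads per 1000000 assigned reads of the cell) in 76, 51 and 70 cells, so the basal label fitted most cells. A cell of each set was an independent library, but no animal is named, so each set was treated as 1 sample. Cells were therefore not used for a p-value or standard error, and every difference between sets lacks a replicate check. The stage cannot be told apart from the run in which cells were captured. Intervals are exact 95% Clopper-Pearson intervals and, since the reads carry no molecular identifiers, cover counting error only.

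Of the 10 members, 3 were widespread and 7 were sparse. Detection means 1 or more reads once a cell had been thinned to 50000 reads. Lgr4, Cd44 and Cd24a were each detected in more cells than any other member in every set, with shares between 59.3% and 100%. The sparse members ranged from 0% for Procr in pregnancy to 43.1% for Lgr5 in unmarked adult cells. Per kilobase of exon, mean Lgr4 was first in marked cells (124 RPKM) and in pregnancy (251 RPKM), and mean Cd24a was first in unmarked cells (224 RPKM). After these 3 members came Procr in marked cells, at 27.2 RPKM, and Cd55 in unmarked and pregnancy cells, at 13.8 and 12.6 RPKM. For every sparse member the median cell was at 0 in each set, so the order of their means rests on few cells, and the per-cell ranges of all neighbours in the order overlapped.

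**Figure D1:**
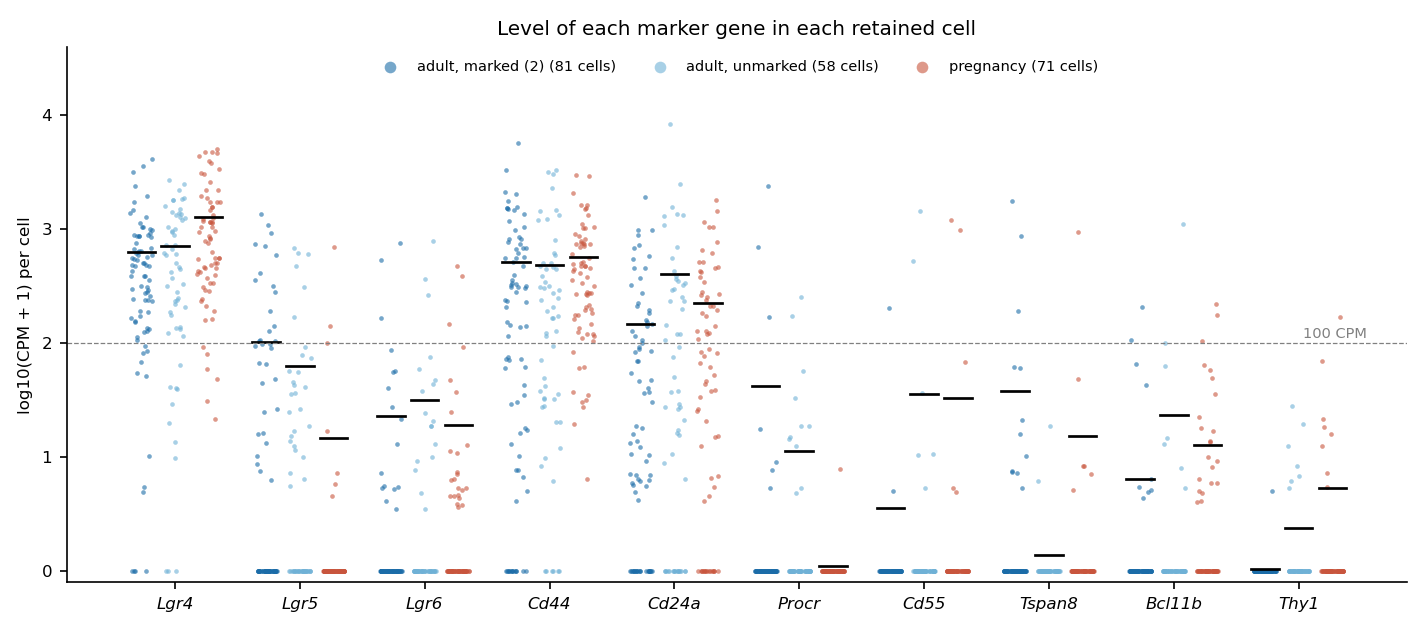
Each point is 1 retained cell, placed by its log10(CPM + 1) on the vertical axis, for 10 genes and 3 sets of cells, and the black bar is the log10 of the set's mean CPM + 1. Most cells of each set reach 100 CPM (dashed line) for Lgr4 and Cd44, and 29.6 to 45.1% do for Cd24a. For the other 7 genes most cells sit at 0.

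Lgr4 (Entrez 107515, chromosome 2, positions 109917647 to 110014257 of GRCm38) was the most widespread of the R-spondin receptors. Its level ran from 0 to 4141 CPM with a median of 425.5 in marked cells, from 0 to 2713 CPM with a median of 456.5 in unmarked cells, and from 20.6 to 5090 CPM with a median of 824.6 in pregnancy cells. It was detected in 92.6% (84.6 to 97.2), 94.8% (85.6 to 98.9) and 100% (94.9 to 100) of cells, and the ranges of the 3 sets overlapped widely. Mean Lgr4 was 625.8 CPM in marked, 713.7 in unmarked and 1271 in pregnancy cells, and the highest cell of a set held at most 8.17% of the set's sum.

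Lgr5 (Entrez 14160, chromosome 10, positions 115450314 to 115587780) was present in part of the adult cells and nearly missing in pregnancy. It was detected in 28 of 81 marked cells (34.6%, 24.3 to 46.0), in 25 of 58 unmarked cells (43.1%, 30.2 to 56.8) and in 5 of 71 pregnancy cells (7.04%, 2.33 to 15.7). The share of the pregnancy cells lay below those of both adult sets. The intervals count cells and not animals, so they do not bound a difference between sets. Highest values were 1348, 684.8 and 704.4 CPM, and 16, 6 and 3 cells reached 100 CPM. Mean Lgr5 was 102.2 CPM in marked, 61.5 in unmarked and 13.7 in pregnancy cells. In pregnancy a single cell held 72.2% of the sum, and the mean was 3.87 CPM without it. In the adult sets the highest cell held 16.3% and 19.2%. Pregnancy cells had the lowest detection share of the 3 sets under each of the 9 settings of threshold, thinning or retained cells that were run, the main one included.

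Lgr6 (Entrez 329252, chromosome 1, positions 134983300 to 135105374) was the sparsest of the 3 receptors in both adult sets, and in pregnancy its share lay between those of Lgr5 and Lgr4. It was detected in 11 marked cells (13.6%, 6.98 to 23.0), 14 unmarked cells (24.1%, 13.9 to 37.2) and 11 pregnancy cells (15.5%, 8.00 to 26.0), with overlapping intervals. Highest values were 762.3, 787.6 and 473.3 CPM, 3 cells of each set reached 100 CPM, and means were 22.1, 31.0 and 18.2 CPM.

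**Figure D2:**
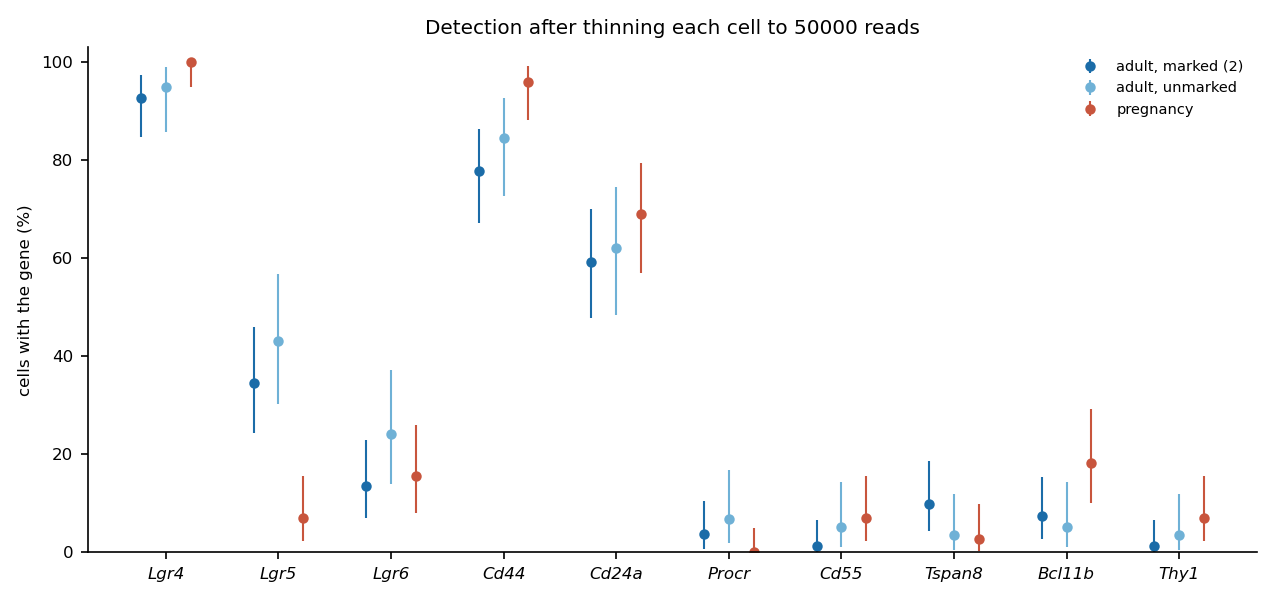
Points give the percent of cells in which each gene was detected after thinning to 50000 reads, and bars the exact 95% interval, which covers counting error only. For Lgr5 the pregnancy share, with an interval of 2.33 to 15.7%, lies below the shares of both adult sets. The intervals count cells of sets without named animals, so they do not bound a difference between sets.

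Cd44 (Entrez 12505, chromosome 2, positions 102811141 to 102901669) was detected in 77.8% (67.2 to 86.3) of marked, 84.5% (72.6 to 92.7) of unmarked and 95.8% (88.1 to 99.1) of pregnancy cells. Its medians were 227.5, 181.1 and 383.4 CPM and its highest cells 5663, 3337 and 3011 CPM, so pregnancy cells had the highest median and the lowest maximum. The means, 518.4, 482.2 and 566.1 CPM, lay closer together than the medians.

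Cd24a (Entrez 12484, chromosome 10, positions 43579169 to 43584265) encodes the protein on which adult cells were gated, so its presence there is no finding. Its RNA was nevertheless found in only 59.3% (47.8 to 70.1) of marked and 62.1% (48.4 to 74.5) of unmarked cells, against 69.0% (56.9 to 79.5) in pregnancy. Medians were 14.8, 36.7 and 75.9 CPM and the highest cells 1904, 8468 and 1798 CPM. Mean Cd24a was 147.8, 406.3 and 224.2 CPM, and the unmarked mean was 264.9 without its highest cell, which held 35.9% of the sum.

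Procr (Entrez 19124, chromosome 2, positions 155751125 to 155755478) was found in few adult cells and hardly any pregnancy cell. Marked cells with 2404, 703.6 and 169.7 CPM were the only 3 of 81 in which it was detected after thinning (3.70%, 0.770 to 10.4), and the first of them held 72.6% of the sum, so the mean of 40.9 CPM was 11.4 without it. In unmarked cells it was detected in 4 of 58 (6.90%, 1.91 to 16.7), with 255.2 CPM in the highest and a mean of 10.3 CPM. In pregnancy it was detected in 0 of 71 cells, where 3 of 71 cells would be 4.23% and the exact upper limit is 5.06%, and unthinned data held 2 reads in 1 cell. Summed over cells, the ratio of pregnancy to marked cells in CPM was 0.00400 (0.000483 to 0.0145), and that of pregnancy to unmarked cells was 0.0165 (0.00195 to 0.0627). These intervals count reads, most of which lay in few cells, and do not bound a difference between sets of cells.

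Tspan8 (Entrez 216350, chromosome 10, positions 115816817 to 115849893) was detected in 8 marked (9.88%, 4.36 to 18.5), 2 unmarked (3.45%, 0.420 to 11.9) and 2 pregnancy cells (2.82%, 0.343 to 9.81). The 3 marked cells above 100 CPM had 1778, 863.9 and 190.9 CPM. The highest unmarked cell had 17.6 CPM, and unmarked cells held 2 Tspan8 reads in all, a ratio of summed CPM to marked cells of 0.0134 (0.00162 to 0.0489). The pregnancy mean of 14.2 CPM came almost wholly from 1 cell at 939.2 CPM and was 1.03 CPM without it. Tspan8 is a close neighbour of Lgr5 on chromosome 10. The gap between them is 229 kb and holds 1 other annotated gene, yet both were detected together in 3 marked cells, where the product of their shares gives 2.77.

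Cd55 (Entrez 13136, chromosome 1, positions 130429798 to 130465009) was detected in 1 marked, 3 unmarked and 5 pregnancy cells (1.24%, 5.17% and 7.04%). The marked cell had 203.3 CPM, the 2 highest unmarked cells had 1434 and 530.8 CPM, and the 2 highest pregnancy cells had 1197 and 993 CPM. The highest cell of each set held 98.0%, 70.9% and 52.9% of the sum. Its near copy Cd55b had 0 reads in adult cells and 1 in pregnancy cells, and reads that fit both copies equally could not be assigned to either here.

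Thy1 (Entrez 21838, chromosome 9, positions 44043384 to 44048579) was the lowest member, with means of 0.0504, 1.38 and 4.40 CPM and 1, 2 and 5 cells in which it was detected. Only 1 cell, of the pregnancy set and at 168.5 CPM, passed 100 CPM. Bcl11b (Entrez 58208, chromosome 12, positions 107910403 to 108004145) was detected in 6 marked (7.41%, 2.77 to 15.4), 3 unmarked (5.17%, 1.08 to 14.4) and 13 pregnancy cells (18.3%, 10.1 to 29.3), mostly at a few reads. Its highest cells had 205.1, 1110 and 219.4 CPM, and the unmarked mean of 22.6 CPM was 3.48 without the cell that held 84.9% of the sum.

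The low shares can be set beside genes for which the adult cells were depleted. Ptprc, which encodes CD45, was detected after thinning in 4.94% of marked, 5.17% of unmarked and 1.41% of pregnancy cells, and Pecam1, which encodes CD31, in 1.23%, 12.1% and 11.3%. Procr, Cd55 and Thy1 in every set, Tspan8 in unmarked and pregnancy cells, Bcl11b in unmarked cells and Lgr5 in pregnancy cells had shares at or below the larger of these 2 within the same set. Such shares are not read as expression by basal cells. Cells above 100 CPM of these members were few, but their levels were far above that of 1 read, which is 20 CPM in a thinned cell.

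Promoters were read to see whether breadth of detection went with a visible feature of sequence. RefSeq windows (GRCm38.p6) were at hand for 7 members, and the dinucleotide CG, the letter C followed by G on the strand of the gene, was counted in the 250 bases before the listed start. The widespread Lgr4 and Cd44 had 10 and 5 CG, and the sparse Lgr6, Procr, Bcl11b, Cd55 and Tspan8 had 16, 13, 9, 8 and 4, against a median of 6 over 27025 promoters. At least 10 CG were found in 38.2% of all these windows and at least 13 in 31.9%, so the count in these windows did not separate widespread from sparse members. The windows of Tspan8, Cd55 and Bcl11b lay wholly inside the annotated gene, and those of Lgr6, Procr and Cd44 in part. Unlike stretches were therefore compared. Printed are the stretches before the annotated gene for the member found in the most pregnancy cells and the member found in the fewest, with CG in capitals. The Lgr4 stretch is the whole window, and the Procr stretch is the 158 bases of its window that lie before the annotated gene, with 9 of its 13 CG. Lgr4 is at chr2:109917397-109917646 and Procr at chr2:155750967-155751124, both on the plus strand.
Lgr4: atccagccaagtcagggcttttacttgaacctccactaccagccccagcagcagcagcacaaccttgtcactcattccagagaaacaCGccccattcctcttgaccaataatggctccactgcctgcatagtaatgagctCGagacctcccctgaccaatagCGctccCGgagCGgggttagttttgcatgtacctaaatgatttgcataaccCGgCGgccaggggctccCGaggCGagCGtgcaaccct
Procr: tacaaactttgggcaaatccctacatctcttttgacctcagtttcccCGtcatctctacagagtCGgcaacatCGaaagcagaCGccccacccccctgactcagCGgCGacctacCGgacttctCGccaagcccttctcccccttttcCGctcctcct

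Differences between sets were computed for each gene as the log2 ratio of mean CPM with 10 CPM added to each mean, which understates changes of low genes, and a gene was called at an absolute value of at least 1. The mean over the sets had to reach 10 CPM, which 8412 genes did, 9 members among them and Thy1 not. Against marked adult cells, Lgr4 (1.01) and Cd55 (1.74) were called higher in pregnancy, where 16.9% of all genes were, and Lgr5 (-2.24) and Procr (-2.33) were called lower, where 13.7% of all genes were. Against unmarked adult cells, Tspan8 (1.22) was called higher in pregnancy (19.8% of all genes) and Lgr5 (-1.59) and Procr (-1.01) lower (15.9% of all genes). Between the adult sets, Cd55 (1.84), Cd24a (1.40) and Bcl11b (1.08) were called higher in unmarked cells (16% of all genes) and Procr (-1.32) and Tspan8 (-2.19) lower (17% of all genes). With 1 to 3 of 9 members called in a direction, the counts were near what these shares of all genes give for 9 genes. The median ratio over the 10 members was 0.31, -0.32 and 0.18 in the 3 comparisons, against 0.05, 0.08 and -0.04 over all genes tested. Each set enters 2 of the comparisons, so these are not independent.

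Lgr5 and Procr were the members called lower in pregnancy against both adult sets, as were 5.18% of all genes, and no member was called higher against both, as were 8.75% of all genes. Other settings did call members higher against both, namely Lgr4 under TMMwsp and poscounts scaling, and both Lgr4 and Cd44 with the mean of log2 values in place of the log2 of means. For Lgr5 the ratio kept its sign in all 11 alternatives of each comparison with pregnancy and passed the threshold in 10, the exception being a pseudocount of 100 CPM. For Procr the sign also held in 11, but the call against unmarked cells held in 2. Without the highest cell of each gene in each set, the ratios against marked cells were -1.09 for Procr and 1.33 for Cd55, still past the threshold, but the mean CPM of both genes no longer passed the limit. Against unmarked cells the ratios became -0.68 for Procr and 0.13 for Tspan8. For Lgr4 the ratios, 1.01 and 0.82, lay on either side of the threshold, and 7 and 3 of 11 alternatives passed it. The higher Cd24a of unmarked over marked cells passed in 10 of 11. Lgr6 (-0.19 and -0.54) and Cd44 (0.12 and 0.23) were called against neither adult set by the ratio of means. Cd24a was higher than in marked (0.57) and lower than in unmarked cells (-0.83), so its direction depended on which adult cells were taken.

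**Figure D3:**
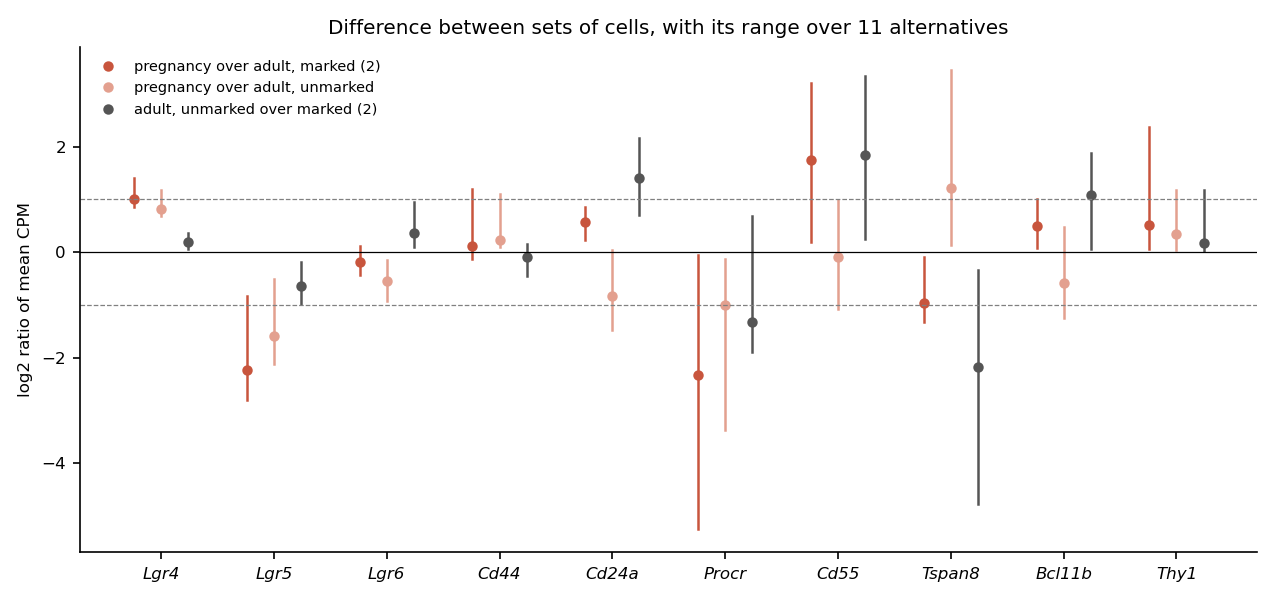
Points are log2 ratios of mean CPM between pairs of sets, bars span the lowest and highest value over 11 alternative ways of processing, and dashed lines mark an absolute value of 1. The bars of Lgr5 and Procr stay below 0 in both comparisons with pregnancy, and those of Procr are the wider, from -5.26 to -0.05 against marked and from -3.37 to -0.14 against unmarked cells.

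Members coincided in a cell somewhat more often than their shares alone would give, as did pairs of all genes with shares of 5 to 50%. For each pair of genes the expected number of cells with both is the product of their shares times the number of cells. Over all 45 pairs, marked cells held 298 coincidences against 287.8 expected (1.03 times), unmarked cells 280 against 255.7 (1.09 times) and pregnancy cells 288 against 281.7 (1.02 times). These totals had little room to depart from 1, since 91.4 to 95.1% of the coincidences were in pairs with Lgr4, Cd44 or Cd24a. Over the 21 pairs of the 7 sparse members alone, a count added after the totals were seen, there were 17 coincidences in marked cells (14.5 expected), 24 in unmarked cells (16.8 expected) and 14 in pregnancy cells (9.24 expected), or 1.17, 1.43 and 1.52 times. Among pairs of members with detection shares of 5 to 50%, the median ratio was 1.40 over 6 pairs in marked, 0.884 over 10 pairs in unmarked and 1.39 over 10 pairs in pregnancy cells. Pairs of all genes in that range had medians of 1.12, 1.29 and 1.04. The members' median thus lay above that of all pairs in 2 sets and below it in 1. The sum over sparse pairs was not computed for all genes. A large part of the 24 unmarked coincidences came from the 2 cells with 7 members described below.

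A cell held a median of 3 of the 10 members in every set, and the number ran from 1 to 6 in marked, 0 to 7 in unmarked and 2 to 6 in pregnancy cells. At least 5 members were found in 7 marked, 9 unmarked and 8 pregnancy cells, where 5.51, 7.02 and 5.13 would be expected. The widest overlap was that of 2 unmarked cells with 7 members, where 0.0756 cells would be expected. The first, titled cell 226, had Lgr5 at 475.2 CPM with Cd55, Tspan8 and Lgr6 at 35.2 CPM or less, and Procr reads were present only before thinning. The second, titled cell 155, had Procr at 173.9 CPM, and it held 10 core basal, 6 luminal and 4 fibroblast genes at 100 CPM, so genes of several lineages lay in 1 library. No doublet caller was run.

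**Figure D4:**
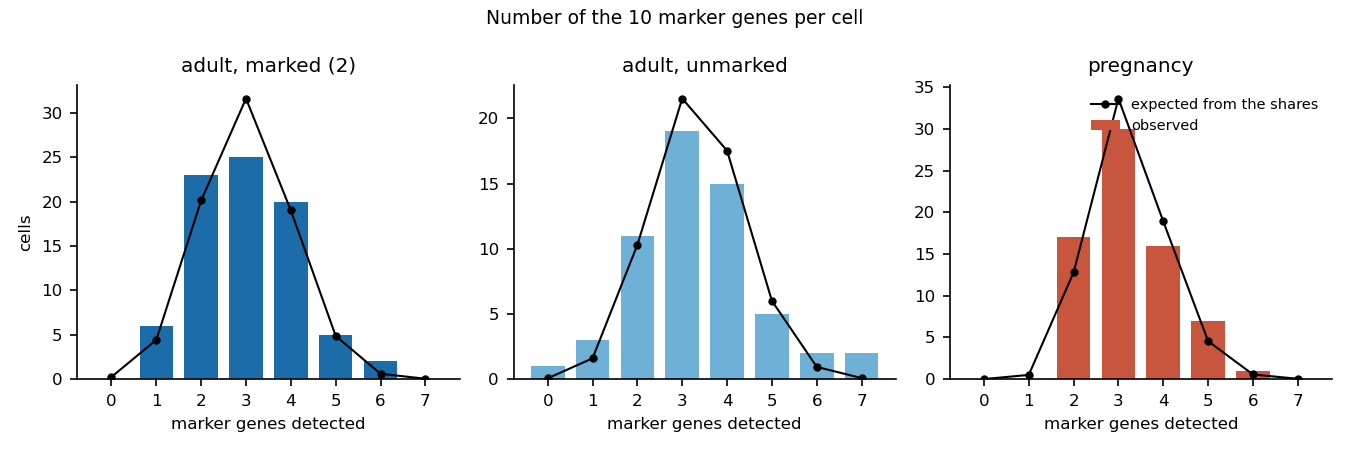
Bars count cells by how many of the 10 marker genes were detected after thinning, and the line gives the number expected if each gene were placed independently at its own share. Observed and expected numbers peak at 3 genes in each of the 3 sets.

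Lgr5 and Procr, the best known pair, were detected together in 1 marked cell (1.04 expected), 2 unmarked cells (1.72 expected) and 0 pregnancy cells, which is 1 of 28 and 2 of 25 Lgr5 cells and 1 of 3 and 2 of 4 Procr cells. At 100 CPM no cell held both, where 0.593 marked and 0.207 unmarked cells would be expected. Marked cell 95 had Procr at 169.7 CPM and Lgr5 at 96.95 CPM. Lgr5 and Lgr6 were together in 6 marked (3.80 expected), 6 unmarked (6.03 expected) and 0 pregnancy cells. Lgr6 and Tspan8 shared 3 marked cells (1.09 expected), and Lgr6 and Procr shared 3 unmarked cells (0.966 expected). Procr and Thy1 shared 2 unmarked cells (0.138 expected), as did Cd55 and Tspan8 (0.103 expected), and Bcl11b and Thy1 shared 3 pregnancy cells (0.915 expected). These small counts were picked from many pairs for their size and carry no test. The Procr and Thy1 cells were cells 135 and 155, which were also among the Lgr6 and Procr cells. Cell 135 held 5 luminal, 2 endothelial and 2 fibroblast genes at 100 CPM beside 8 core basal genes. Of the Cd55 and Tspan8 cells, cell 130 had 9 luminal and 0 core basal genes, and cell 226 had 3 and 10.

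Of the 28 marked Lgr5 cells, 27 had Lgr4, 24 had Cd44 and 19 had Cd24a, against 25.9, 21.8 and 16.6 expected. All 25 unmarked and all 5 pregnancy Lgr5 cells had Lgr4 as well. At 100 CPM, 16 of 16 marked Lgr5 cells had Lgr4 (13.4 expected) and 9 had Cd24a (4.74 expected), but the corresponding Cd24a count in unmarked cells was 3 (2.59 expected). Of the 3 widespread members, marked and unmarked cells each had 13 cells with all 3 at 100 CPM (11.7 and 12.2 expected) and pregnancy had 25 (25.2 expected). Across cells the levels of Lgr4, Cd44 and Cd24a were close to unrelated, with Spearman correlations of thinned counts between -0.16 and 0.13 in the 3 sets of 81, 58 and 71 cells, all thinned to the same number of reads. Likeness to other genes was taken as the smallest of the 3 correlations, 1 per set. Among 3283 genes none reached a likeness of 0.3 to a widespread member, and the highest was 0.27 for Lgr4, 0.26 for Cd44 and 0.24 for Cd24a. Sparse members were seen in too few cells for this measure.

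At a high level the sparse markers rarely met. The 7 sparse members reached 100 CPM in 53 of the 210 retained cells, and 51 of these 53 cells held only 1 of them. The 2 exceptions were marked cells, 1 with Lgr5 and Lgr6 and 1 with Lgr5 and Tspan8. The product of the shares gives 4.78 cells with more than 1, against these 2, so sparse genes meet rarely at this level whether or not they are linked. In pregnancy, 13 cells held a sparse member at 100 CPM and none held more than 1 (0.888 expected).

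**Figure D5:**
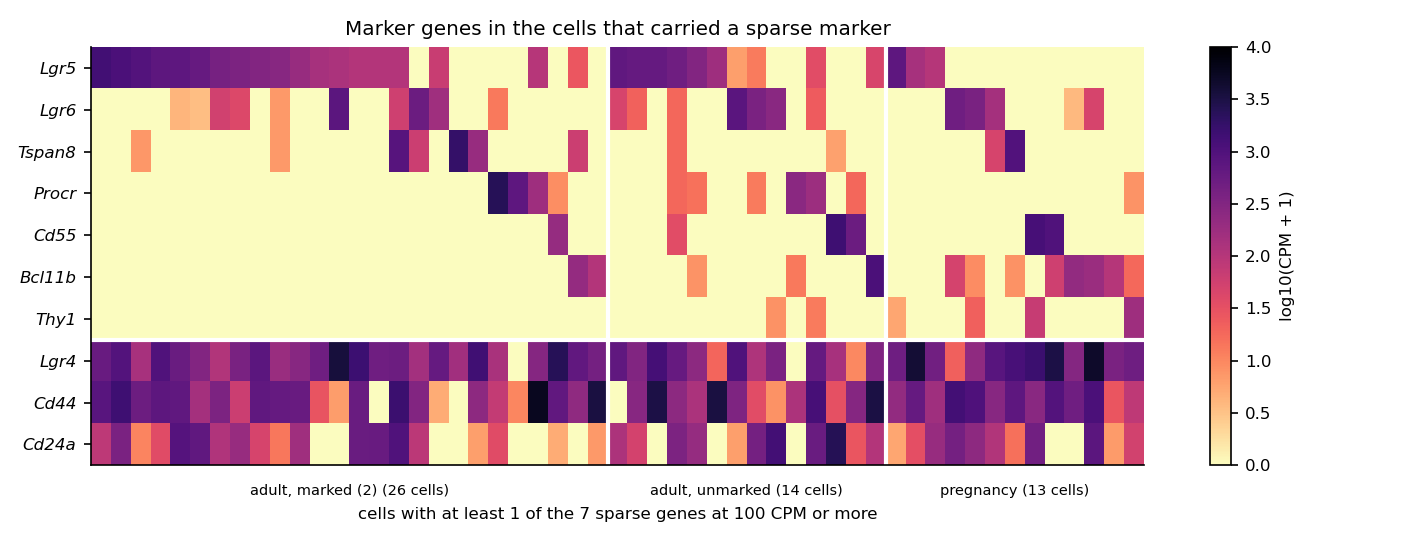
Columns are the 53 cells with at least 1 of 7 sparse marker genes at 100 CPM or more, grouped by set and ordered by the first such gene, which gives the staircase, and colour is log10(CPM + 1). In 51 of the 53 columns only 1 of the upper 7 genes reaches 100 CPM, whereas Lgr4, Cd44 and Cd24a are spread over the columns of all 7.

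The lineage genes of the marker cells differed by marker. Cells with Procr at 100 CPM were poor in basal genes. Of these 5 adult cells, 4 had fewer than 6 of 11 core basal genes at 100 CPM, as had 12 of all 139 adult cells, and the 3 marked cells had 5, 4 and 5. The Procr cell with the highest level also held 3 of 8 pericyte genes, and none of the 3 marked cells held an immune, endothelial or fibroblast gene at 100 CPM. Of the 2 unmarked cells, that at 255.2 CPM held 1 endothelial gene, and that at 173.9 CPM held 1 immune, 1 endothelial and 4 fibroblast genes. Adult cells with Lgr5 at that level had a median of 10 core basal genes, and 1 of 22 had fewer than 6. The median of all adult cells was 9 and that of adult cells with Lgr4, Cd24a, Cd44 or Bcl11b at 100 CPM was 10 as well. Restricted to cells with at least 6 core basal genes, Procr was not called in any comparison. Its ratio of pregnancy to marked cells went from -2.33 to -0.05, that of pregnancy to unmarked cells from -1.01 to -0.73, and that of unmarked to marked cells from -1.32 to 0.68. The Cd55 cell at 1434 CPM had 9 of 12 luminal genes and 0 core basal genes, whereas the pregnancy Cd55 cells at 1197 and 993 CPM had 10 core basal genes each, the first of them beside 5 of 8 fibroblast genes. All 6 cells with Bcl11b at 100 CPM had at least 8 core basal genes, and all 4 with Tspan8 had at least 7.

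Cells with and without a member could be compared within a set where both held at least 10 cells. Marked cells with Lgr5 had a median of 10 core basal and 2 luminal genes at 100 CPM, and those without it 9 and 1. Unmarked cells with Lgr5 had 10 and 2, and those without it 8 and 1. In marked cells the luminal difference came mostly from Krt8, Krt18 and Epcam, which were named after their values were seen. Krt8 reached 100 CPM in 60.7% of cells with Lgr5 and 24.5% of those without, Krt18 in 46.4% and 24.5%, and Epcam in 89.3% and 67.9%. In unmarked cells the shares were 52.0% and 36.4% for Krt8, 24.0% and 21.2% for Krt18, and 76.0% and 57.6% for Epcam. The rest of the luminal list did not follow as a whole. In marked cells Krt19 did (14.3% and 7.55%), but Cldn3, Cldn7, Elf5, Prlr and Areg were at 0% with Lgr5 and 1.89% without. In unmarked cells Krt19 (4.00% and 12.1%), Cldn3, Cldn4 and Ehf went the other way, while Cldn7 and Areg were slightly higher with Lgr5. Marked cells with Lgr5 also had more genes after thinning (2714 against 2134), whereas unmarked cells with Lgr5 had fewer (2006 against 2396), and the part of this in the gene counts was not tested. Unmarked cells with Cd24a had 2494 genes after thinning and 10 core basal genes, against 1734 and 8 in those without. Unmarked cells with Lgr6 had a median mitochondrial share of 25.5% against 14.3%. For Lgr6, Cd24a and Bcl11b in pregnancy, the median number of core basal genes was 9 with and without each gene.

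The partners of the members were described from lists with a fixed content. None of 11 genes of the R-spondin and Wnt receptor list was called in the same direction against both adult sets. Among them Znrf3, Fzd7, Lrp6 and Rnf43 had the highest levels. Mean Lrp6, a Wnt co-receptor, was 118.3 CPM in pregnancy against 50.3 and 54.7 in marked and unmarked cells, and mean Fzd7, a Wnt receptor, was 115.1 against 103.6 and 108.9. The ligands themselves, named for their role, were near 0, since Rspo2, Rspo3 and Rspo4 averaged 1.48 CPM or less in each set. Mean Rspo1 was 27.6 CPM in unmarked cells and 5.74 CPM or less in the others.

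Of 7 genes around the protein C pathway, 1 was called lower against both adult sets. This was F2rl1, a receptor activated by proteases, with means of 35.4 and 14.2 CPM in marked and unmarked cells and 0.179 in pregnancy. Thbd, which encodes thrombomodulin, averaged 361.8 CPM in unmarked cells, where 24.1% of cells had it after thinning, and 0.496 and 2.43 CPM in the others. In unmarked cells the summed level of the 7 genes had a median of 282.1 CPM and a highest cell of 17191 CPM, so such means can rest on few cells. F3, tissue factor, averaged 42.1, 263.4 and 194.7 CPM. Of 8 genes that regulate complement, Serping1, which encodes the inhibitor of C1, was called lower, from 105.4 and 38.5 CPM to 8.54, and C3 had the highest level, with means of 192.6, 293.2 and 265.0 CPM.

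Among 12 other tetraspanins, Tspan3 was called higher (467.3 CPM in pregnancy against 188.6 and 201.0) and Cd151, a partner of laminin-binding integrins, was called lower (51.9 against 165.1 and 221.0). Cd9 was the most abundant, at 1404, 1498 and 1603 CPM, and was detected in at least 98.3% of cells of each set. Of 10 genes of the hyaluronan list, Has2, a synthase, was called higher (66.1 CPM against 20.2 and 16.2) and Hyal1, a hyaluronidase, lower (15.0 against 47.0 and 40.7). None of 8 chromatin partners of Bcl11b was called in 1 direction against both sets, although Chd4 and Rbbp4, subunits of a deacetylase complex, averaged between 124.0 and 242.2 CPM. Of 13 sorting and other stem cell markers, Cd14, a receptor for bacterial lipopolysaccharide, and Nrp1, a co-receptor for semaphorins and VEGF, were called lower. Mean Cd14 was 383.5, 19.3 and 0.183 CPM in marked, unmarked and pregnancy cells, and mean Nrp1 was 16.6, 70.5 and 1.29 CPM. Detection in marked and unmarked cells was 8.64% and 17.2% for Cd14, and 3.70% and 24.1% for Nrp1. The highest marked cell held 31306 CPM summed over the 13 genes, and list genes were not looked at without their highest cell. Itgb1, which encodes CD29, and Itga6, the CD49f integrin chain, were detected in at least 87.7% of cells of each set and were called in neither direction. Counts of 0 to 2 called per direction in these lists compare with 8.75% and 5.18% of all genes.

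Lineage markers also differed between the sets. Of 11 core basal genes, Trp63, a transcription factor of basal cells, and Mylk, the kinase of smooth muscle myosin, were called higher in pregnancy against both adult sets and the keratin Krt17 lower. Of 12 luminal genes, the keratin Krt19 was called lower, and 17 marked, 10 unmarked and 6 pregnancy cells held at least 3 luminal genes at 100 CPM. Of 12 proliferation genes, Top2a, Cdk1, Cenpf and Tpx2 were called higher, and 2 marked, 7 unmarked and 17 pregnancy cells held at least 3. In pregnancy the median was 1 proliferation gene in cells with and without Lgr6, Cd24a or Bcl11b.

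Of 8 fibroblast genes, Pdgfra was called higher in pregnancy, and the median ratio of unmarked to marked cells was 2.70 on the log2 scale. The median ratio of pregnancy to marked cells was 0.66, and that of pregnancy to unmarked cells was -1.46. Their summed level ran from 0 to 3267 CPM with a median of 3.13 in marked cells, from 0 to 38199 CPM with a median of 34.6 in unmarked cells, and from 55.2 to 5782 CPM with a median of 680.5 in pregnancy cells. The collagen-binding gene Dcn had the highest mean in each set, at 106.7, 677.1 and 1113 CPM. In pregnancy the next highest mean was 60.0 CPM, for Pdgfra, so the summed level there was mostly Dcn. Lum and Dpt were at 0 in all marked cells, and none of the 8 was at 0 in the other sets. At least 3 fibroblast genes reached 100 CPM in 0 marked, 3 unmarked and 3 pregnancy cells, and of the 3 unmarked cells 1 was the Procr cell at 173.9 CPM and 1 the Cd55 cell at 530.8 CPM. Of 8 pericyte genes, Cspg4 was called higher in pregnancy, and 2 marked cells held at least 3. Of 8 Schwann cell genes none was called, and of 8 immune and 8 endothelial genes 3 and 2 passed the limit on mean CPM and none was called. Only 1 cell held 3 immune genes, and it had none of the sparse members at 100 CPM. The part of these genes in the members' differences between sets was not tested.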

How the data were processed

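Full-length cDNA of single cells was made on the Fluidigm C1, turned into Nextera XT libraries and sequenced on a NextSeq 500. The authors aligned the read pairs with Subread 1.5.0 to mm10 and assigned them with featureCounts to the built-in RefSeq annotation of Rsubread. The deposited values are raw counts, with each read pair counted once for an Entrez gene, and whether strand was used is not given in the sources used here. IDs without a symbol, which held 1.66% of the reads, 15 mitochondrial and 124 ribosomal protein genes were left out, and cells were kept at the study's relaxed limits of 50000 read pairs and 1000 genes. These limits removed 67 of 125 unmarked cells.

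Assigned reads ran from 51464 to 405910 per retained cell. Counts were divided by each cell's assigned total to give CPM, and by exon length to give RPKM, and were thinned without replacement to 50000 reads for detection. At this depth 1 read is 20 CPM. Ratios of mean CPM used a pseudocount of 10 CPM, a minimum mean of 10 CPM over the sets, and an absolute log2 of 1 as a call. The intervals of summed read ratios are exact 95% counting intervals. They treat reads as independent although few cells held most of them, so they do not bound a difference between sets of cells. No count model was fitted, since a set of cells without named animals is 1 sample. Expected coincidences are products of detection shares. No 2 retained cells had identical counts. The ratios and pair counts were tested on simulated data.

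The members and gene lists were chosen with earlier results of these data known. Besides the members, genes were named that were most like a member (a likeness of at least 0.3), that a list called in the same direction against both adult sets, or that were among the 4 of highest mean CPM in a list. Genes outside this rule were named after their values were seen or for their role. Promoter sequences are from RefSeq tables of GRCm38.p6. Alternatives covered cell limits, thinning depth, detection threshold, pseudocount, averaging, scaling and retained cells. Python 3.11.15, numpy 2.4.6, scipy 1.17.1, pandas 2.3.3 and matplotlib 3.10.9 were used, with edgeR 4.0.16 in R 4.3.3 for the scaling factors of TMMwsp only.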

Additional observations from a re-analysis of the deposited data

Results flagged for a closer look

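Cells below the limits on reads and genes entered no comparison, and each set of left-out cells held more reads of the members than 3, the number that a library without any is taken to permit. In the 31 left-out marked cells the members summed to 711.6 CPM over all assigned reads (exact Poisson interval 636.0 to 793.7), where 3 reads would be 6.63, against 1459 in retained cells. In the 67 left-out unmarked cells they had 2347 (2236 to 2462), where 3 reads would be 4.17, against 1769 in retained cells. In the 4 left-out pregnancy cells they had 1057 (859.5 to 1287), where 3 reads would be 32.0, against 1956 in retained cells. Median assigned reads of the left-out cells were 9892, 6338 and 22659. Lgr5 took part in the unmarked excess, with 428.2 CPM (381.8 to 478.8) in left-out against 50.5 in retained unmarked cells, and 1 of 23 cells with a read held 32.5% of its 308 reads. Cd44 had 862.0 CPM in left-out against 448.9 in retained unmarked cells. Lgr5 had 0 reads in the left-out pregnancy cells.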

How the results depend on the processing

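No paired analysis was possible because the results come from no test and the numbers in the titles only name cells. Of 330 alternative log2 ratios of members, 271 stayed on their side of the threshold, 57 crossed it and 2 changed sign after a call. Both of these were Procr in unmarked over marked cells, at 0.10 with the mean of log2 values and 0.68 in cells with at least 6 core basal genes. Of 240 detection shares 195 stayed within their interval, and the totals of coincidences are not counted here, since pairs with a widespread member fix them near 1.

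Members called higher and lower numbered 2 and 2 for pregnancy over marked, 1 and 2 for pregnancy over unmarked, and 3 and 2 for unmarked over marked cells. With 100000 reads and 1500 genes required, pregnancy over marked had 1 lower and unmarked over marked 1 lower. A pseudocount of 100 CPM left 0 in every direction but 1 higher (Cd24a) in unmarked over marked cells. The mean of log2 values gave 1 lower, then 2 higher and 1 lower, then 0 and 0. Summed reads gave 1 higher over marked, and 0 higher and 4 lower over unmarked cells. Without the highest cell of each gene there were 1 and 1, then 0 and 1, then 1 and 0. TMMwsp and poscounts scaling each gave 2 higher over unmarked cells, and shifted the median of all genes by 0.26 and 0.34 in pregnancy over marked cells, by 0.23 and 0.14 in pregnancy over unmarked cells and by 0.03 and 0.21 in unmarked over marked cells. With mitochondrial and ribosomal genes kept there were 1 higher and 0 higher in the comparisons of pregnancy, with a shift of -0.17 over marked cells. In cells with at least 6 core basal genes, pregnancy over marked had 1 higher, pregnancy over unmarked 1 lower and unmarked over marked 1 lower.

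Members in at least 20% of cells numbered 4, 5 and 3 in marked, unmarked and pregnancy cells, with 3 in unmarked cells at 100 CPM and 5 in pregnancy at 1 read without thinning. At least 5 members were found in 8.64%, 15.5% and 11.3% of cells, but in 1.23%, 0% and 0% at 100 CPM, in 22.2% of marked and 36.2% of unmarked cells without thinning, in 6.90% of unmarked and 4.23% of pregnancy cells at 2 reads, in 5.17% and 2.82% of them after thinning to 20000 reads, and in 2.47%, 6.90% and 2.82% without Cd24a. The causes were not tested. The number of cells limits how finely small shares can be read. Already 3 cells are 3.70%, 5.17% and 4.23% of the marked, unmarked and pregnancy cells, and the exact upper limit for 0 cells is 4.45%, 6.16% and 5.06%.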
